A study of Mus musculus with 6 samples.

Results

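The collagen genes were followed in gastrointestinal stromal tumours (GIST) of mice given imatinib or vehicle. Collagen members were the rows of the deposited gene-level table whose name is COL, a number, A and a number, 38 of 31492 rows, and 28 of them were kept because at least 1 probe had a detection p under 0.05 on 3 or more of the 6 arrays. They are 7 fibrillar collagens, 7 basement membrane collagens and 14 others, among 14715 genes tested. The rule used names and detection, and 23 of the 28 were detected on all 6 arrays.

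GIST arises in the wall of the gut, resembles the interstitial cells of Cajal, and in most cases depends on the mutant receptor tyrosine kinase KIT. The drug imatinib blocks KIT, and also ABL, the PDGF receptors and the collagen receptors DDR1 and DDR2. The study had 3 tumours from mice injected intraperitoneally with imatinib and 3 from mice injected with vehicle, each measured on 1 Illumina beadchip. All were Kit V558Δ/+ mice of strain C57Bl/6 at 6 weeks of age, so both groups carried the same activating Kit allele. Dose and duration are not given in the labels. Whether each sample came from its own animal is not stated in the labels, and the p-values below therefore reflect only the variation among these samples, which may be technical.

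Collagens are secreted or membrane proteins with a triple helix of repeated glycine triplets, and they form the bulk of the extracellular matrix. Fibrillar collagens, types I, III and V among them, build the rope-like fibres of connective tissue. Type IV collagen forms the sheet-like network of basement membranes under epithelium and around vessels, muscle and nerve, and types XV and XVIII lie at the border of these sheets. The genes of type IV collagen lie in head-to-head pairs, and the pair Col4a1 and Col4a2 is a textbook case of a shared bidirectional promoter. In the gut wall, fibroblasts, smooth muscle, endothelium, glia and epithelium all make collagens.

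The start regions of 6 collagens are shown because 5 of them, Col4a1, Col4a4, Col4a5, Col23a1 and Col7a1, were the members whose imatinib and vehicle arrays did not overlap, and Col4a2 is the partner of Col4a1. Each is the RefSeq window on build GRCm38.p6, 250 bases before the annotated start and 50 after it, written 5′ to 3′ on the strand of the gene. Capitals mark CCAAT or its reverse complement ATTGG, and GGGCGG or CCGCCC, the GC box.
Col4a1, chr8:11312777-11313076, minus strand: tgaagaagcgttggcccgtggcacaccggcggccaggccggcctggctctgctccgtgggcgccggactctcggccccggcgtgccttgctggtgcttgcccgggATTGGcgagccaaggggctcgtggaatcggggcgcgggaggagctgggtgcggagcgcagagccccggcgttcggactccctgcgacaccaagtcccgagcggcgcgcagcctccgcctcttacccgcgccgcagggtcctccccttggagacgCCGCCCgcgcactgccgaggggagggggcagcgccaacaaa
Col4a2, chr8:11312555-11312854, plus strand: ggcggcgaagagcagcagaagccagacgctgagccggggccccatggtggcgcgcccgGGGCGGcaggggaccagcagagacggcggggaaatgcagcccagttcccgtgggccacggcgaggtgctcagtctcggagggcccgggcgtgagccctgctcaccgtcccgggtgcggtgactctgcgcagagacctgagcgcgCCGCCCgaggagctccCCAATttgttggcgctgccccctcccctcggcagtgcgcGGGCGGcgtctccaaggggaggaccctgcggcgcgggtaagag
Col4a4, chr1:82586800-82587099, minus strand: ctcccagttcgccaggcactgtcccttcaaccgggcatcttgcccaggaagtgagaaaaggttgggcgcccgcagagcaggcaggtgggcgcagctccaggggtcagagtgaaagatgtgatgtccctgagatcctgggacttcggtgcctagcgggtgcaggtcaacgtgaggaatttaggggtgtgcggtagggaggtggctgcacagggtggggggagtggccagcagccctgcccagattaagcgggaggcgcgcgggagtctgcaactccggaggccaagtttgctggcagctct
Col4a5, chrX:141475169-141475468, plus strand: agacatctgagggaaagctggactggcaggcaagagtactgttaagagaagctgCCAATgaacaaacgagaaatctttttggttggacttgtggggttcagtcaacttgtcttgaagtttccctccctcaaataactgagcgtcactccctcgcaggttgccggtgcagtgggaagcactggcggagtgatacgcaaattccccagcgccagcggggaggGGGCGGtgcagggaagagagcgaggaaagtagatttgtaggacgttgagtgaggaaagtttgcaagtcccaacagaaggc
Col23a1, chr11:51289670-51289969, plus strand: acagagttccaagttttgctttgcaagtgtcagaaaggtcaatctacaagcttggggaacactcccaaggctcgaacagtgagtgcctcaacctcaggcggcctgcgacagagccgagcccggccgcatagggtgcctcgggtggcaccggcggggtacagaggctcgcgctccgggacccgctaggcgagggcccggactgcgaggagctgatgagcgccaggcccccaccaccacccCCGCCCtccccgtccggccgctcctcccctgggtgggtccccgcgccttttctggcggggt
Col7a1, chr9:108953336-108953635, plus strand: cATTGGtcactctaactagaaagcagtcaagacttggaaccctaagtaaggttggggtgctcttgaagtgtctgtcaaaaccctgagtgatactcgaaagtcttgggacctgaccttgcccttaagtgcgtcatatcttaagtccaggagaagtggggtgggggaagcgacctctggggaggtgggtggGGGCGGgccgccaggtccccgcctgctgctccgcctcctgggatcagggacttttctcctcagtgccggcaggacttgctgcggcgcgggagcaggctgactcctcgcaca
The Col4a1 and Col4a2 windows lie on opposite strands and share 78 bases, in which the GC box of the Col4a1 window is read as 1 of the 3 in the Col4a2 window. CCAAT in either direction was found in the windows of Col4a1, Col4a2, Col4a5 and Col7a1, and in 37.4% of all 32851 windows of the RefSeq table. The GC box was found in all of the 6 except Col4a4 and in 35.7% of all windows. TATAAA, searched on both strands as well, was in none of the 6 and in 13.6% of all windows. GC content was 74.0% for Col4a1, 73.7% for Col4a2, 63.3% for Col4a4, 52.7% for Col4a5, 67.7% for Col23a1 and 58.7% for Col7a1, against a median of 52.7% over all windows. A match of letters is a description and does not show binding. Of the 28 members 23 had a window in the table.

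Between 20684 and 21439 probes per array were detected, and the median probe was read from 43 beads. Along the leading principal component of all genes tested (60.8% of the variance), the imatinib arrays lay at -47.3 to -10.1. Vehicle 2 lay at -0.98, nearest to imatinib 2, and the other vehicle arrays at 30.7 and 60.5. Over the same genes vehicle 2 correlated with vehicle 3 at 0.978 and with vehicle 1 at 0.945. Its correlations with imatinib 1, 2 and 3 were 0.973, 0.977 and 0.956. The counts of collagens and of pathway genes that passed are given without vehicle 2 as well. Vehicle 2 was singled out for its place on the leading component, so calls made without it are no separate support. At a limma adjusted p under 0.05, 1394 genes passed without vehicle 2 and 293 without imatinib 2. Leaving out imatinib 1, imatinib 3, vehicle 1 or vehicle 3 gave 0 genes. Of the markers of the labelled tumour, Kit and Etv1 had probes detected on all 6 arrays, with mean log2 signals of 13.94 and 13.18 with imatinib and of 14.25 and 13.09 with vehicle, and Ano1 had no row.

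No collagen passed the test. Of the 28 members, 0 reached an adjusted p under 0.05 in limma with p-values adjusted by Benjamini-Hochberg over all genes, where 1.58% of all genes tested did (0.523% higher and 1.05% lower with imatinib). The smallest adjusted p among them was 0.0547, and 3 members, Col23a1, Col7a1 and Col4a4, were under 0.1, as were 11.4% of all genes. At an unadjusted limma p under 0.05 there were 6 collagens of 28, or 21.4%, 4 higher and 2 lower, against 26.4% of all genes. The imatinib and vehicle arrays did not overlap for 5 members, or 17.9%, against 31.9% of all genes. With 28 members these shares rest on few genes, and their distance from the background was not tested. Means were lower with imatinib for 16 members, or 57.1%, against 45.7% of all genes, and higher for 12, and the median log2 change was -0.05, beside 0.04 over all genes tested. In these bulk samples, fewer cells of a type and less RNA per cell cannot be told apart.

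**Figure D1:**
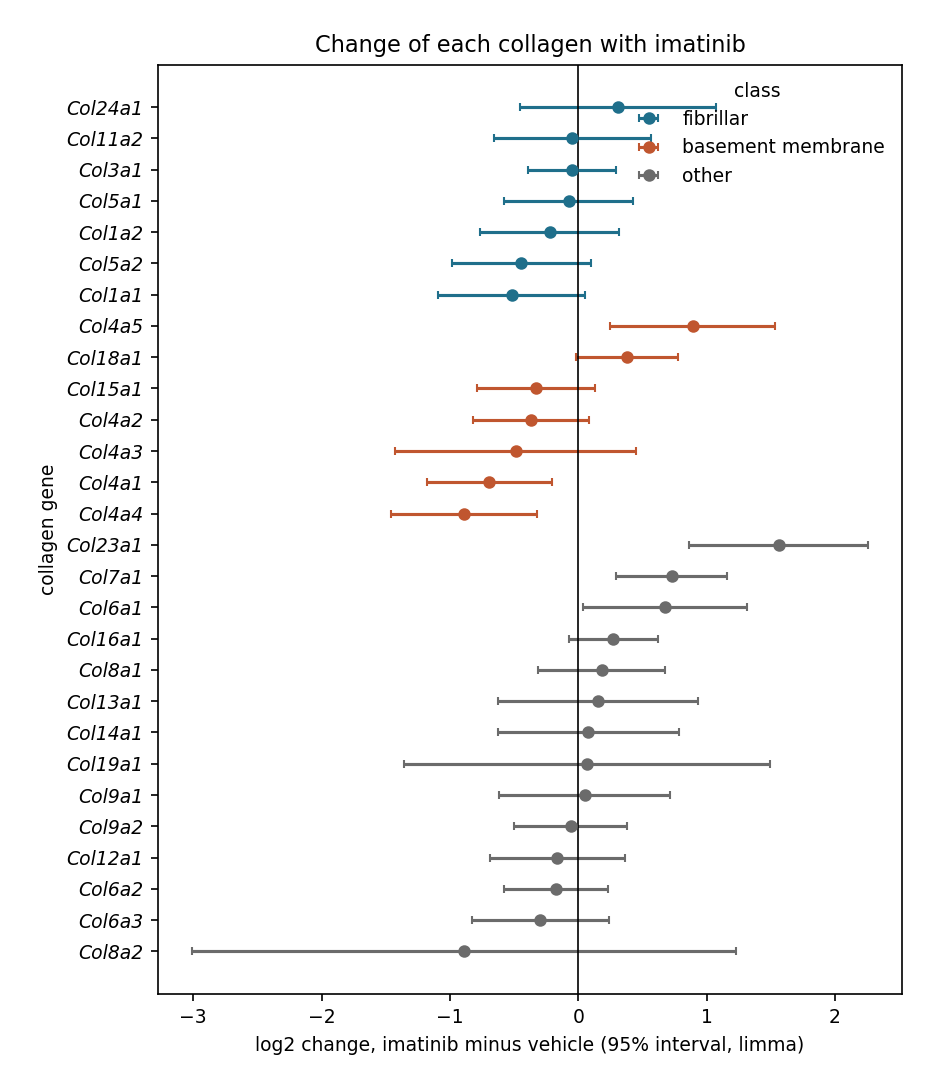
Log2 change of signal, imatinib minus vehicle, on the horizontal axis for each of the 28 collagens, with the 95% interval from limma, coloured by class. The intervals of Col23a1, Col7a1, Col6a1, Col4a5, Col4a1 and Col4a4 leave out 0, although none of these genes passed after adjustment over all genes.

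None of the 7 fibrillar collagens passed, none had groups apart, and their median log2 change was -0.08, with values from -0.52 for Col1a1 to 0.31 for Col24a1. Col3a1, the chain of type III collagen that accompanies type I in gut wall and vessels, had log2 signals of 13.13, 12.84 and 13.03 on the imatinib arrays and of 13.22, 12.86 and 13.06 on the vehicle arrays. The groups interleaved, and the log2 change of -0.05 ± 0.14 (SE, limma adjusted p = 0.844) had a 95% interval of -0.39 to 0.29.

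Type I collagen, the main fibre of connective tissue, is built from Col1a1 and Col1a2 chains. Col1a1 had 8.19, 7.96 and 8.44 with imatinib, against 9.06, 8.26 and 8.84 with vehicle. Vehicle 1 and vehicle 3 were above every imatinib array, and vehicle 2 fell among them, so the groups overlapped. The log2 change was -0.52 ± 0.24 (SE, limma adjusted p = 0.221), and -0.75 without vehicle 2 (adjusted p = 0.0568). Col1a2, named beside its partner after its values were seen, had 12.33, 12.12 and 12.11 with imatinib, against 12.65, 11.92 and 12.66 with vehicle. Vehicle 1 and vehicle 3 were again above every imatinib array, vehicle 2 was lowest of all 6, and its log2 change was -0.22 ± 0.22 (adjusted p = 0.541), or -0.47 without vehicle 2 (adjusted p = 0.0712).

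Type V collagen starts fibrils and sets their width. Col5a2 had 8.20, 7.82 and 8.30 with imatinib, against 8.95, 8.23 and 8.47 with vehicle, with a log2 change of -0.44 ± 0.22 (SE, limma adjusted p = 0.255), and vehicle 2 again lay among the imatinib arrays. Col5a1, Col11a2 and Col24a1 differed by -0.08, -0.05 and 0.31 on the log2 scale, with adjusted p-values of 0.840, 0.924 and 0.549. The rows of the fibrillar chains Col2a1, Col5a3, Col11a1 and Col27a1 had no probe detected on 3 arrays and were not tested. Col2a1 is the collagen of cartilage, and none of its probes was detected on any array.

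**Figure D2:**
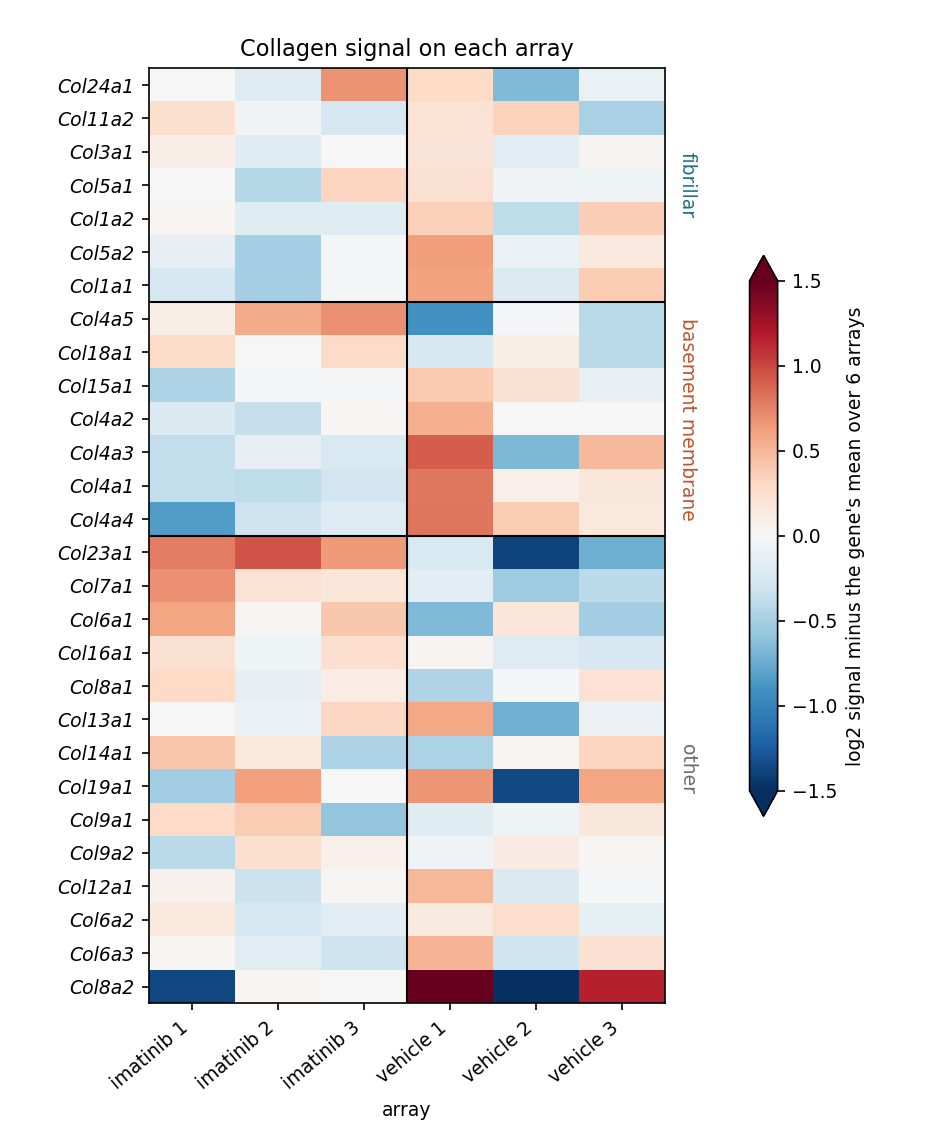
Signal of the 28 collagens on each array, imatinib arrays left of vehicle arrays, as log2 signal minus the mean of the gene over the 6 arrays (colour, cut at 1.5 in the key). Vehicle 1 holds the highest value for 13 members, and Col8a2 and Col19a1 have the widest ranges among the vehicle arrays.

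Among the basement membrane collagens, 5 of 7 had a lower mean with imatinib and 2 a higher one, and none passed. Their median log2 change was -0.37 (-0.19 without vehicle 1 and -0.17 in the authors' processed table), and 3 of 7 had groups apart, Col4a1 and Col4a4 lower and Col4a5 higher. Over all genes the share with groups apart was 14.5% lower and 17.4% higher. The summed linear signal of the class was 5780 to 6616 on the imatinib arrays and 7020 to 10090 on the vehicle arrays, a sum to which Col4a1 and Col4a2 contribute most.

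Col4a1, which pairs with Col4a2 in the type IV network of nearly all basement membranes, had 11.44, 11.43 and 11.52 with imatinib, against 12.60, 11.88 and 11.98 with vehicle. The imatinib arrays lay close together and below every vehicle array, and vehicle 1 stood above the other vehicle arrays. The mean was 1.62-fold lower with imatinib, a log2 change of -0.69 ± 0.20 (SE, 95% interval -1.18 to -0.20), which did not pass (limma adjusted p = 0.105). Without vehicle 1 the log2 change was -0.47 and without vehicle 2 it was -0.83 (adjusted p = 0.158 and 0.0579). Col4a2, which shares the promoter region printed above, had 10.62, 10.49 and 10.85 with imatinib, against 11.38, 10.85 and 10.85 with vehicle. Imatinib 3 reached the level of vehicle 2 and vehicle 3, so the groups overlapped, and the log2 change was -0.37 ± 0.19 (adjusted p = 0.258). Both genes were thus lower in mean with imatinib and neither passed.

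Col4a3 and Col4a4, which with Col4a5 make the type IV network of the kidney filter and a few other sites, were dim here. Col4a4 had 4.85, 5.38 and 5.49 with imatinib, where 2 of 3 arrays were detected, against 6.48, 6.06 and 5.84 with vehicle, where all 3 were. Every imatinib array lay below every vehicle array, and the log2 change of -0.89 ± 0.24 (SE, limma adjusted p = 0.0898) did not pass. It was -0.41 in the gene-level table, -0.23 in the authors' processed table and -0.53 with a normexp offset of 50. A further row that the annotation names Col4a4 had a difference of -0.83 ± 0.36 (adjusted p = 0.207), with overlapping groups. Col4a3 had 4.86, 5.11 and 4.9985 with imatinib, against 6.14, 4.56 and 5.72 with vehicle, and it was detected on 1 imatinib array and 2 vehicle arrays. Vehicle 2 was lowest of all, and the log2 change was -0.49 ± 0.39 (adjusted p = 0.448), against -0.94 without vehicle 2 (adjusted p = 0.0409), a call where 9.47% of all genes passed.

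Col4a5, the X-linked chain that also joins Col4a6 in basement membranes of smooth muscle, had a higher mean. It had 8.47, 8.93 and 9.06 with imatinib, against 7.46, 8.35 and 7.97 with vehicle, with imatinib 1 just above vehicle 2. The mean was 1.85-fold higher with imatinib, a log2 change of 0.89 ± 0.27 (SE, limma adjusted p = 0.109), and its other kept probe differed by 0.64. Without vehicle 2 it passed with 1.10 (adjusted p = 0.0488). Its neighbour Col4a6 was detected on at most 2 arrays and was not tested. Col4a6 thus stood just outside the detection rule, as did Col28a1 and the Col27a1 row, while Col4a3 and Col9a2, detected on 3 arrays, stood just inside it.

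Col18a1, the source of the fragment endostatin, had 10.15, 9.89 and 10.17 with imatinib, against 9.64, 9.97 and 9.48 with vehicle. Vehicle 2 lay above imatinib 2, and the log2 change was 0.38 ± 0.16 (SE, limma adjusted p = 0.207). Col15a1, which anchors basement membranes to the stroma, had 5.53, 5.97 and 5.98 with imatinib, against 6.38, 6.21 and 5.87 with vehicle. Vehicle 3 fell among the imatinib arrays, and the log2 change was -0.33 ± 0.19 (SE, limma adjusted p = 0.306). Of the other 2 kept Col18a1 probes 1 differed by 0.32 and 1 by -0.40, so the sign for Col18a1 depends on the probe.

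**Figure D3:**
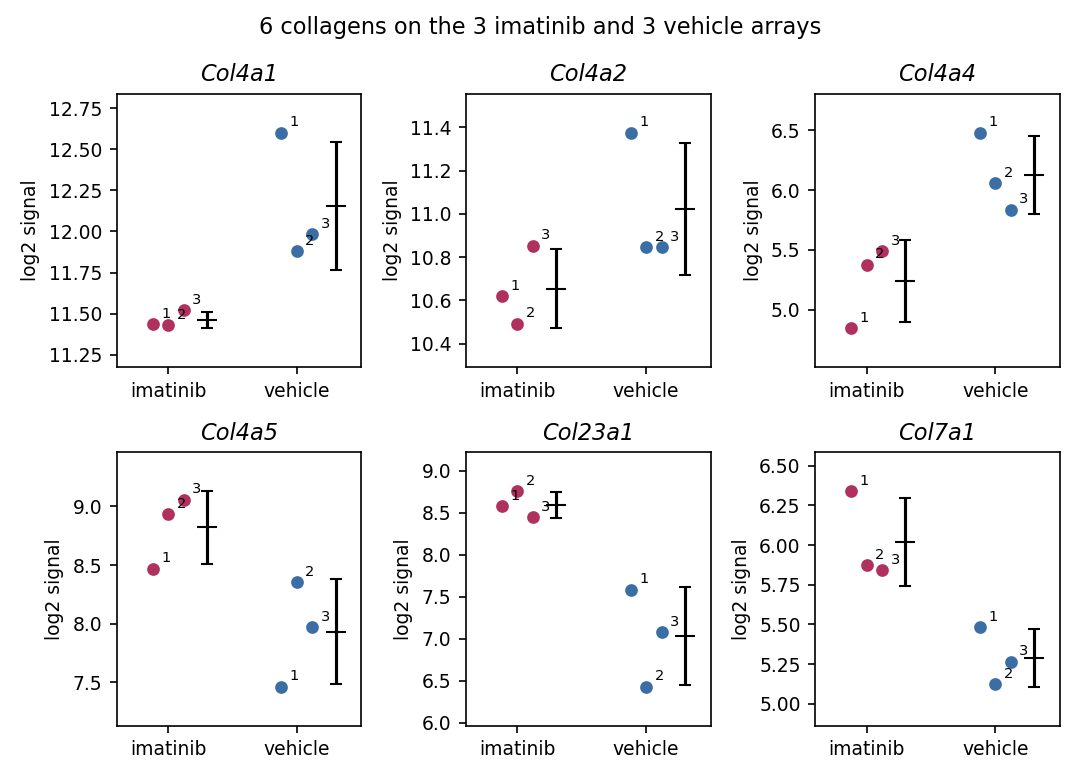
Log2 signal of 6 collagens on each array (numbered points, imatinib left of vehicle) with the mean and SD of each group of 3 arrays. Groups are apart for all but Col4a2, with vehicle 1 highest for Col4a1 and Col4a2 and lowest for Col4a5.

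The 14 other collagens had a median log2 change of 0.07, 9 with a higher mean and 5 with a lower mean with imatinib, and none passed. Col23a1, a transmembrane collagen whose ectodomain can be shed, showed the largest difference of the 28. It had 8.58, 8.76 and 8.45 with imatinib, against 7.58, 6.43 and 7.08 with vehicle. Every imatinib array lay above every vehicle array, with wider spread among the vehicle arrays (SD 0.58) than among the imatinib arrays (SD 0.15). The mean was 2.96-fold higher with imatinib, a log2 change of 1.56 ± 0.29 (SE, 95% interval 0.87 to 2.26), just short of the threshold (limma adjusted p = 0.0547). Its other kept probe differed by 1.75. It passed in 7 of 16 alternatives. Among them were a normexp offset of 50, the mean of kept probes, the gene-level table, the authors' processed table and an intensity trend, where it was the only collagen called and 2.28%, 2.78%, 2.68%, 2.62% and 2.92% of all genes passed. No collagen was called with 75th percentile scaling, where 1.6% of all genes were, and 13 of 28 were with array weights, where 51.6% of all genes were. Col23a1 also passed in the fit over all kept probes, where both of its probes passed (adjusted p = 0.0494 and 0.0442) and 2.33% of all probes did.

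Col7a1, the anchoring fibril that ties epithelium to the stroma below, had 6.34, 5.88 and 5.84 with imatinib, against 5.48, 5.12 and 5.27 with vehicle. Again the imatinib arrays were all above the vehicle arrays, at a dim level, and the log2 change was 0.73 ± 0.18 (SE, limma adjusted p = 0.0780). The difference was smaller, though of the same sign, in the gene-level table (0.29), in the authors' processed table (0.18) and with a normexp offset of 50 (0.44). Markers of epithelium, a cell type that makes this fibril in skin, varied within the vehicle group. Their summed linear signal over 8 markers was 28089 to 34692 with imatinib and 6801 to 35684 with vehicle, lowest on vehicle 1, and all 8 had a higher mean with imatinib without any passing. Their part in the Col7a1 result was not tested.

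Type VI collagen, the beaded filament around cells, is built from Col6a1, Col6a2 and Col6a3, and the means of its chains did not share a direction. Col6a1 had 11.38, 10.80 and 11.19 with imatinib, against 10.12, 10.97 and 10.26 with vehicle, a log2 change of 0.67 ± 0.27 (SE, limma adjusted p = 0.174). Vehicle 2 lay above imatinib 2, and without vehicle 2 the change was 0.93 (adjusted p = 0.0470). Its other kept probe differed by 0.63. Col6a3 had 12.36, 12.17 and 12.01 with imatinib, against 12.83, 12.03 and 12.55 with vehicle, a change of -0.29 ± 0.22 (adjusted p = 0.423). The Col6a3 change was -0.52 without vehicle 2 (adjusted p = 0.0929) and -0.11 without vehicle 1. Col6a2 differed by -0.17 (adjusted p = 0.527) and its other kept probe by 0.36, so the sign for Col6a2 depends on the probe.

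Fibril-associated collagens sit on the surface of fibrils and link them to other matrix. Col16a1 had 10.79, 10.49 and 10.81 with imatinib, against 10.60, 10.36 and 10.30 with vehicle, a log2 change of 0.27 ± 0.14 (SE, limma adjusted p = 0.269) with overlapping groups. Col12a1, Col14a1, Col9a1 and Col9a2 differed by -0.16, 0.08, 0.05 and -0.06 (adjusted p from 0.652 to 0.924). Col9a1 had a second kept probe, dimmer than the tested one, with 4.4042, 4.61 and 4.33 with imatinib, where it was not detected, against 5.94, 5.34 and 5.61 with vehicle, where it was detected on all 3. Its signal was at least 1.49-fold lower with imatinib, with the dim arrays set at the lowest detected signal, and it passed in the fit over all kept probes (adjusted p = 0.0374). That probe entered the filter only through the vehicle arrays, and the tested Col9a1 probe did not show the difference.

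Col8a2 and Col19a1 were singled out after their values were seen because they had the widest spread among vehicle arrays. Col8a2, a short-chain collagen of the sheet under endothelium of the cornea, had 8.58, 9.97 and 9.94 with imatinib, against 11.65, 8.40 and 11.11 with vehicle. Vehicle 2 was lowest of the 6 arrays and the other vehicle arrays were the highest, and the log2 change was -0.89 ± 0.88 (SE, limma adjusted p = 0.536) and -1.88 without vehicle 2 (adjusted p = 0.0587). Col19a1 had 8.44, 9.58 and 8.97 with imatinib, against 9.63, 7.61 and 9.55 with vehicle. Its log2 change was 0.07 ± 0.59 (adjusted p = 0.952) and turned to -0.59 without vehicle 2 (adjusted p = 0.262). Col13a1 and Col8a1 differed by 0.15 and 0.18 (adjusted p = 0.783 and 0.591), and Col13a1 was at -0.17 without vehicle 2.

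Many collagens varied more among vehicle arrays than among imatinib arrays. The SD over 3 arrays was larger with vehicle than with imatinib for 20 of 28 members, or 71.4%, against 53.8% of all genes tested, with medians of 0.24 with imatinib and 0.38 with vehicle, and over all genes of 0.18 and 0.19. Vehicle 1 was the highest vehicle array for 18 of 28 members, 5 of 7 fibrillar, 5 of 7 basement membrane and 8 of 14 others. It was the highest for 7115 of 14715 genes tested, a smaller share. Vehicle 2 was the lowest vehicle array for 5 of 7 fibrillar collagens, 2 of 7 basement membrane collagens and 7 of 14 others, 50.0% of the members in all, against 48.1% of all genes. Without vehicle 2, 4 collagens passed limma's adjusted threshold, Col23a1, Col4a5 and Col6a1 higher and Col4a3 lower, where 9.47% of all genes did, and 13 of 28 had an unadjusted p under 0.05 beside 33.5% of all genes.

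Further collagens were reached only through the updated annotation, since their rows carry clone names, and they are not among the 28. Col20a1 had 7.81, 8.004 and 7.64 with imatinib, against 6.89, 7.61 and 6.90 with vehicle, a log2 change of 0.69 ± 0.23 (SE, limma adjusted p = 0.130) with groups apart. Col22a1, found at tissue junctions such as that of muscle and tendon, had 4.99, 4.49 and 4.402 with imatinib and was detected on none of these arrays, against 5.14, 5.99 and 5.22 with vehicle, where it was detected on all 3. It was at least 1.32-fold lower with imatinib (adjusted p = 0.133), and it entered the filter only through the vehicle arrays. Col6a4 differed by 0.43 ± 0.28 (adjusted p = 0.352). Second rows of Col5a2 and Col27a1 differed by -0.19 and -0.04 (adjusted p = 0.649 and 0.915).

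Of 57 tested genes that make, bind or sense collagen, taken from a list of 68, 1 fell with imatinib, none rose and 56 did not pass, a share of calls close to the 1.58% of all genes, and 37 had a lower mean (64.9%, against 45.7% of all genes). Their groups were apart for 22 genes on the lower side and 5 on the higher side, where 14.5% and 17.4% of all genes were, and the median log2 change was -0.29, beside 0.04 over all genes. Ctsk, the lysosomal protease cathepsin K that digests collagen, had 10.41, 10.32 and 10.12 with imatinib, against 11.53, 11.03 and 11.42 with vehicle. It fell by 1.04 on the log2 scale, ± 0.17 (SE, limma adjusted p = 0.0472), with groups apart, and it passed in 9 of 16 alternatives. Itga1, the collagen-binding integrin chain, differed by -0.98 ± 0.17 (adjusted p = 0.0523), and Itga10 and Itga11, further collagen-binding chains, by 0.69 ± 0.13 and 0.81 ± 0.16 in the opposite direction (adjusted p = 0.0540 and 0.0570). Without vehicle 2, 17 of the 57 passed, 14 lower and 3 higher, where 9.47% of all genes did. Lair1, an inhibitory collagen receptor of leukocytes, differed by -0.91 ± 0.19 (adjusted p = 0.0613). The kinase receptors that imatinib binds, Ddr1 and Ddr2, differed by 0.10 ± 0.14 and -0.50 ± 0.24 (adjusted p = 0.670 and 0.246).

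**Figure D4:**
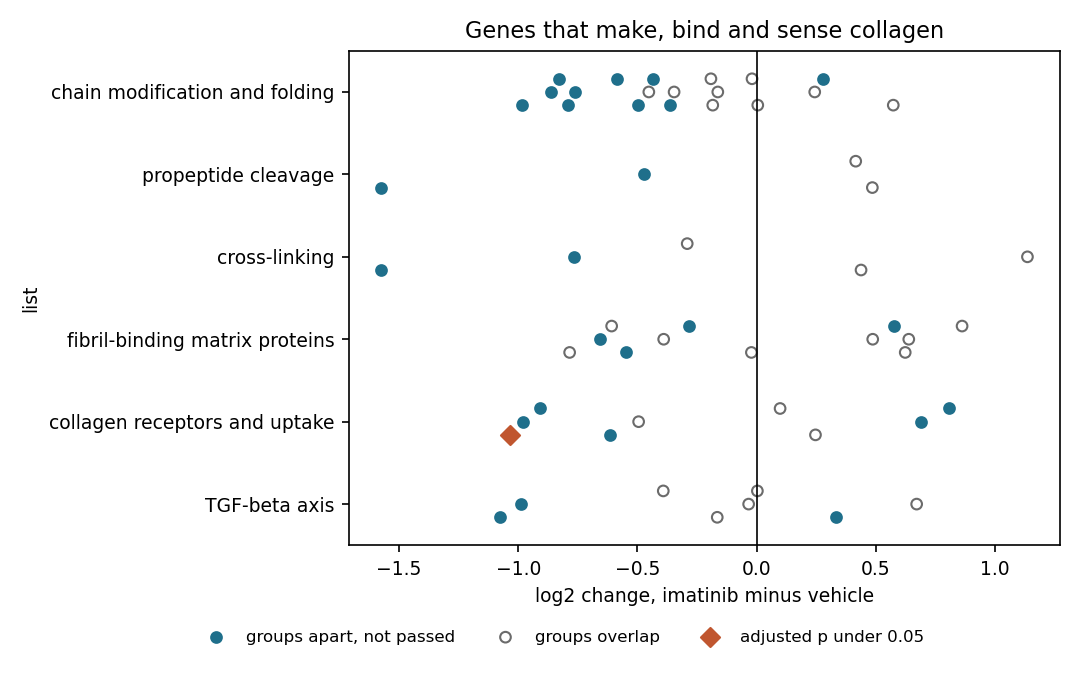
Log2 change, imatinib minus vehicle, of the tested genes that make, bind or sense collagen, with 1 row per list (vertical offsets within a row carry no value). Filled circles have imatinib and vehicle arrays apart without passing, open circles overlap, and the diamond is Ctsk, the gene with an adjusted p under 0.05.

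No chain modification or folding gene passed. Of 19 tested, 15 had a lower mean with imatinib, 9 with groups apart on that side and 1 on the other (14.5% and 17.4% of all genes), and the median log2 change was -0.36. Without vehicle 2, where 9.47% of all genes passed, Crtap, Fkbp14, P3h1 and Fkbp10 passed (limma adjusted p = 0.0383, 0.0435, 0.0393 and 0.0342), all lower with imatinib. Crtap, a partner of prolyl 3-hydroxylase, had 8.83, 9.24 and 8.75 with imatinib, against 9.9986, 9.41 and 10.0001 with vehicle, a change of -0.86 ± 0.22 (SE, limma adjusted p = 0.0817). Fkbp14, a chaperone that isomerises prolines, differed by -0.79, the hydroxylase P3h2 by -0.50 and Sec23a, a coat protein that carries procollagen out of the endoplasmic reticulum, by -0.98 (adjusted p = 0.0911, 0.0946 and 0.0976). Serpinh1, the collagen chaperone HSP47, named after its values were seen, differed by -0.59 ± 0.19 (adjusted p = 0.124).

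Of 4 tested genes of propeptide cleavage none passed, and Pcolce and Bmp1 did without vehicle 2, where 9.47% of all genes did. Pcolce, which speeds removal of the end propeptide of fibrillar chains, had 9.37, 9.89 and 9.27 with imatinib, against 11.36, 10.55 and 11.34 with vehicle, all imatinib arrays lower. The change was -1.57 ± 0.28 (SE, limma adjusted p = 0.0531), and it passed in 7 of 16 alternatives. Bmp1, the protease that Pcolce assists, differed by -0.47 (adjusted p = 0.144), and Adamts2 and Pcolce2 by 0.49 and 0.42 (adjusted p = 0.353 and 0.632). Among 5 cross-linking enzymes Loxl1 had 11.19, 11.99 and 11.56 with imatinib, against 13.48, 12.61 and 13.37 with vehicle, a change of -1.57 ± 0.30 (adjusted p = 0.0547), with groups apart. Loxl4, Lox and Loxl2 differed by -0.77, 1.14 and 0.44 (adjusted p = 0.0749, 0.229 and 0.287). No cross-linking enzyme passed with all arrays, and Loxl1 and Loxl4 did without vehicle 2, lower with imatinib.

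Of 12 matrix proteins that bind collagen none passed, 7 with a lower mean and 5 with a higher one. Without vehicle 2, where 9.47% of all genes passed, Fn1 and Hspg2 did, lower with imatinib. Hspg2, the basement membrane proteoglycan perlecan, differed by -0.66 ± 0.14 (SE, limma adjusted p = 0.0633) with groups apart. Sparc and Thbs2 differed by -0.55 and -0.61 (adjusted p = 0.130 and 0.140). Postn was detected on the imatinib arrays alone and entered the filter only through them, and its signal was at least 1.24-fold higher with imatinib (adjusted p = 0.0951). In the TGF-beta axis, which drives collagen transcription in fibroblasts, none of 8 passed. Without vehicle 2, Tgfb1 and Ccn2 passed lower and Tgfb3 higher with imatinib. Tgfb1 differed by -1.08 ± 0.19, Ccn2, a target of the pathway, by -0.99 ± 0.18, Tgfbr2 by 0.33 and Tgfb3 by 0.67 (adjusted p = 0.0531, 0.0545, 0.146 and 0.214). With the mean of kept probes Tgfbr2 was at 0.02 (limma adjusted p = 0.915), so its difference depends on the probe.

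Markers of cells that make collagen were read beside these values. Of 7 fibroblast markers none passed and 5 had a higher mean. Their summed linear signal, to which Dcn contributes most, was 13220 to 14179 with imatinib and 4414 to 14007 with vehicle, lowest on vehicle 1. Groups were apart for 3 on the higher side, Postn among them, and for 1 on the lower side, where 17.4% and 14.5% of all genes were. Of the PDGF receptors in that list, Pdgfra differed by 1.45 ± 0.25 with groups apart and Pdgfrb by -0.06 ± 0.16 (SE, limma adjusted p = 0.0519 and 0.832). Dcn, Lum and Postn of that list are also among the matrix proteins above. Endothelial markers had a higher mean in 6 of 6 tested, Cldn5 rose (log2 change 1.99 ± 0.28 SE, limma adjusted p = 0.0418), and their sum was 3575 to 4291 with imatinib and 2108 to 3576 with vehicle, while Kdr was detected on no array and Tie1 on 2. Groups were apart on the higher side for 5 of the 6 endothelial markers, where 17.4% of all genes were. For smooth muscle 5 of 5 tested markers had a higher mean and none passed, with sums of 20626 to 30547 with imatinib and 10055 to 23734 with vehicle. The glial marker Sox10 rose (1.39 ± 0.18 SE, limma adjusted p = 0.0411), and Sox10 and Cldn5 each passed in 9 of 16 alternatives, while S100b and Gfap were not detected. All 4 mesothelial markers had a higher mean and none passed, with sums of 508 to 802 with imatinib and 210 to 893 with vehicle. Col4a1 was lower in mean with imatinib, while the endothelial and smooth muscle sums were higher in mean. Within the vehicle group Col4a1 and the endothelial sum shared an order, highest on vehicle 1 (12.60 and 3576) and lowest on vehicle 2 (11.88 and 2108). The smooth muscle sum had the reverse order there. Esam, the brightest tested endothelial marker, had overlapping groups and the order of the sum (11.14, 9.81 and 10.51 on vehicle 1, 2 and 3). Pecam1, Cdh5, Tek and Egfl7 were lowest on vehicle 3 and Cldn5 on vehicle 1, so these markers did not share that order. The part of cell composition in the collagen values was not tested.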

How the data were processed

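Total RNA, 200 ng per sample, was amplified, labelled with biotin and hybridised to Illumina beadchips, per the labels' protocols. Per the file headers, the deposited values of a probe are a mean bead intensity, a bead count, the bead standard error as a signal, and a detection p-value, none normalized between arrays. The authors also deposited gene-level log2 values without normalization and processed log2 values. Processed columns had medians of 5.53 on every array and kept the rank order of the gene-level columns, are neither centred on 0 nor ratios, and have an unknown normalization target. Partek is named in the submitters' processing notes, and a scanner program or genome build is not given in these sources.

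Probes (45281) were linked to gene-level rows by finding the run of neighbouring probes whose log2 mean signal equals the row on all 6 arrays within 8e-06 (6.2e-05 for values of 10 and over). All 31492 rows matched exactly 1 run, and 4 rows with repeated names were left out. Names were updated through RefSeq (GRCm38.p6). Signals were corrected by normexp from detection p-values (limma 3.58.1 in R 4.3.3, neqc, offset 16), quantile normalized and log2 transformed, so folds of dim genes are understated. Each gene was represented by its brightest kept probe (detection p under 0.05, 3 or more arrays), and groups were compared with lmFit and eBayes, without a block, with Benjamini-Hochberg adjustment over 14715 genes. The procedure was tested on simulated data.

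The members and the lists were chosen with earlier results of these data known. The collagens given in full were Col1a1, Col3a1, Col4a1, any collagen called and the 12 further collagens with the smallest p. In each pathway list those called and the 4 with the smallest p were named. Of these pathway genes, Ctsk, Crtap, Pcolce and Loxl1 have values on each array, and the others a difference only. Exceptions are stated. Basement membrane collagens are types IV, XV and XVIII. The number of arrays, 3 per group, limits the precision. Alternatives are described in the closing section.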

Additional observations from a re-analysis of the deposited data

How the results depend on the processing

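The count of collagens past an adjusted p of 0.05 (limma) stayed at 0 of 28 with 75th percentile scaling, without a detection filter and with a replicate block, was 0 of the 23 tested with detection on all 6 arrays, and was 1, Col23a1 each time, with a normexp offset of 50, the mean of kept probes, the gene-level table, the authors' processed table or an intensity trend. It was 13 with array weights, whose fit reported no convergence and where 7588 genes (51.6%) passed, and 3 at an adjusted p of 0.1, where 1674 did. Leaving out 1 array in turn gave 0 to 4 collagens, with 4 only without vehicle 2. The count over all genes was 232, and it was 409 with the mean of kept probes, 395 with the gene-level table, 385 with the processed table, 429 with an intensity trend, and 0 without a detection filter, where 29519 genes were tested and the smallest adjusted p of a collagen was 0.0795. It ranged from 0 to 1394 with 1 array left out, being 0 without imatinib 1, imatinib 3, vehicle 1 or vehicle 3, 293 without imatinib 2 and 1394 without vehicle 2. Same-numbered arrays did not deviate together (correlations -0.11, -0.31 and 0.02, and from -0.20 to 0.25 for arrays of unlike number). Deviations from means of 3 arrays cannot decide whether the numbers pair the samples. The fit with the replicate block called 0 genes and 0 collagens. The class medians moved by less than the replicate spread, except that of the other collagens, which ranged from -0.012 to 0.18 with 1 array left out and was 0.18 without vehicle 3. The fibrillar median was 0.02 without vehicle 1. The basement membrane median of -0.37 was -0.19 without vehicle 1 and -0.17 in the processed table.

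Of the 28 collagens, 11 turned sign under at least 1 alternative, and they are Col3a1, Col5a1, Col6a2, Col8a1, Col9a1, Col9a2, Col11a2, Col12a1, Col13a1, Col14a1 and Col19a1. Col13a1 was at -0.17 and Col11a2 at 0.12 without vehicle 2, and Col11a2 at 0.56 with array weights, where it passed. Col3a1 was at 0.0049 in the processed table and ranged from -0.14 (without vehicle 2) to 0.037 (without vehicle 1) with 1 array left out, with 0.03 without imatinib 2. Col19a1 was at -0.80 with array weights and ranged from -0.59 (without vehicle 2) to 0.42 (without vehicle 1), with -0.23 without imatinib 2. Adamts2 was at -0.25 with array weights. Pcolce2 was at -0.38 with array weights and ranged from -0.22 (without vehicle 1) to 0.79 (without vehicle 3). Etv1 was at -0.33 with the mean of kept probes and ranged from -0.050 (without imatinib 1) to 0.31 (without imatinib 3). Pdgfrb was at 0.14 with array weights and ranged from -0.18 (without vehicle 3) to 0.059 (without vehicle 1). Added after seeing the data, a fit over all 21395 kept probes called 498 probes and probes of 2 collagens, Col23a1 and Col9a1, the Col9a1 probe having entered the filter only through the vehicle arrays, where it is higher, and collagens by updated name gave 0 calls and a median of 0.08 for the other collagens. The causes of these differences were not tested. Of 14 further kept probes of members, 10 had the sign of the tested probe, and those of Col12a1, Col6a2, Col9a1 and 1 of Col18a1 did not.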
